A study of Mus musculus with 6 samples.

Results

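The calcium handling genes of heart muscle are described here in fetal mouse hearts with and without functional Hif1a in recombined heart muscle cells. The members are the 10 genes Cacna1c, Ryr2, Jph2, Trdn, Casq2, Hrc, Atp2a2, Pln, Sln and Slc8a1, taken by symbol from a table of 15118 genes, and all 10 had a row. The 6 samples are whole hearts of Black-Swiss embryos at E12.5 (days after mating), profiled by RNA-seq. The 3 Hif1a mutant hearts (numbered 5, 8 and 10) carried a null and a floxed Hif1a allele, and the 3 control hearts (2, 5 and 9) a wild-type and a floxed one. All 6 carried Cre in 1 copy of NKX2-5, a gene active in cardiac progenitors and heart muscle, so only cells with Cre activity recombine the floxed allele. Values are RPKM (read counts divided by constitutive exon length and by library depth), which allow levels of different genes to be compared per length. Nothing beyond separate hearts is known of the replicates, and the p-values reflect only variation among those hearts. In limma, the spread used for each gene was drawn toward that of other genes, which enters its SE, intervals and p-values.

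In a heart muscle cell, calcium entering through the L-type channel opens ryanodine receptors in the sarcoplasmic reticulum, the internal calcium store, and the released calcium triggers contraction. The beat ends when a pump, SERCA2, returns calcium to the store and the sodium-calcium exchanger removes it across the cell membrane. Small membrane proteins restrain the pump, calcium-binding proteins hold calcium inside the store, and anchoring proteins keep the channel and the release site close together. In the embryonic heart the reticulum and its contacts with the cell membrane are still immature.

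The channel, the release receptor, the pump and the exchanger had log2 changes between -0.13 and 0.08 in mutant hearts. The lower values were in the storage protein Casq2, the pump inhibitors Pln and Sln and the anchor Trdn. For Casq2, Pln and Trdn they came from mutants 8 and 10 more than from mutant 5, while Sln was below the controls in all mutant hearts and lowest in mutant 10. None of the 10 members passed the threshold in limma (Benjamini-Hochberg adjusted p under 0.05 over all tested genes), which 107 of 13080 tested genes (0.818%) did, 52 of them (0.398%) as lower. At an unadjusted limma p under 0.05 there were 2, Sln and Casq2, both lower in mutant hearts, where 11.2% of all tested genes passed in either direction and 6.26% as lower. The SD within genotypes was 0.68 for Sln and 0.54 for Casq2 on the log2 scale. Both were drawn by limma toward the smaller spread of other genes, so their p is smaller than their own spread would give. Sln alone had values that did not overlap between the genotypes, as 9.43% of tested genes did in the lower direction. The median log2 change of the 10 members was -0.08, beside -0.03 over all tested genes, and 7 members were negative, as were 57.4% of tested genes. In whole hearts, fewer cells of a type and less RNA per cell cannot be told apart. Some lists of markers for other cell types (macrophage, epicardial and mesenchymal, endothelial and endocardial) also had low values in mutant hearts, with no gene past the threshold. All 9 macrophage markers were negative, with summed RPKM of 28.8, 25.2 and 12.6 in mutants 5, 8 and 10, against 35.1, 40.5 and 41.4 in controls 2, 5 and 9. Of 8 epicardial and mesenchymal markers 7 were negative, and their sum ranged from 199 to 280 RPKM in mutant and from 315 to 341 RPKM in control hearts. Of 9 endothelial and endocardial markers 7 were negative, with sums of 113 to 136 RPKM in mutant and 124 to 144 RPKM in control hearts. Other lists were not low in sum. Smooth muscle markers, mostly Acta2, summed to 359 to 484 RPKM in mutant and 355 to 383 RPKM in control hearts. Of 6 tested, 4 were negative (median log2 change -0.05), and Itga8 was lower in every mutant heart than in every control heart. Erythroid markers summed to 11715 to 21054 RPKM in mutant and 13955 to 16563 RPKM in control hearts, with 4 of 7 tested negative. Skeletal muscle markers, of which Tnni2 passed as lower, are given below. The part of these cells in the members' values was not tested.

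**Figure D1:**
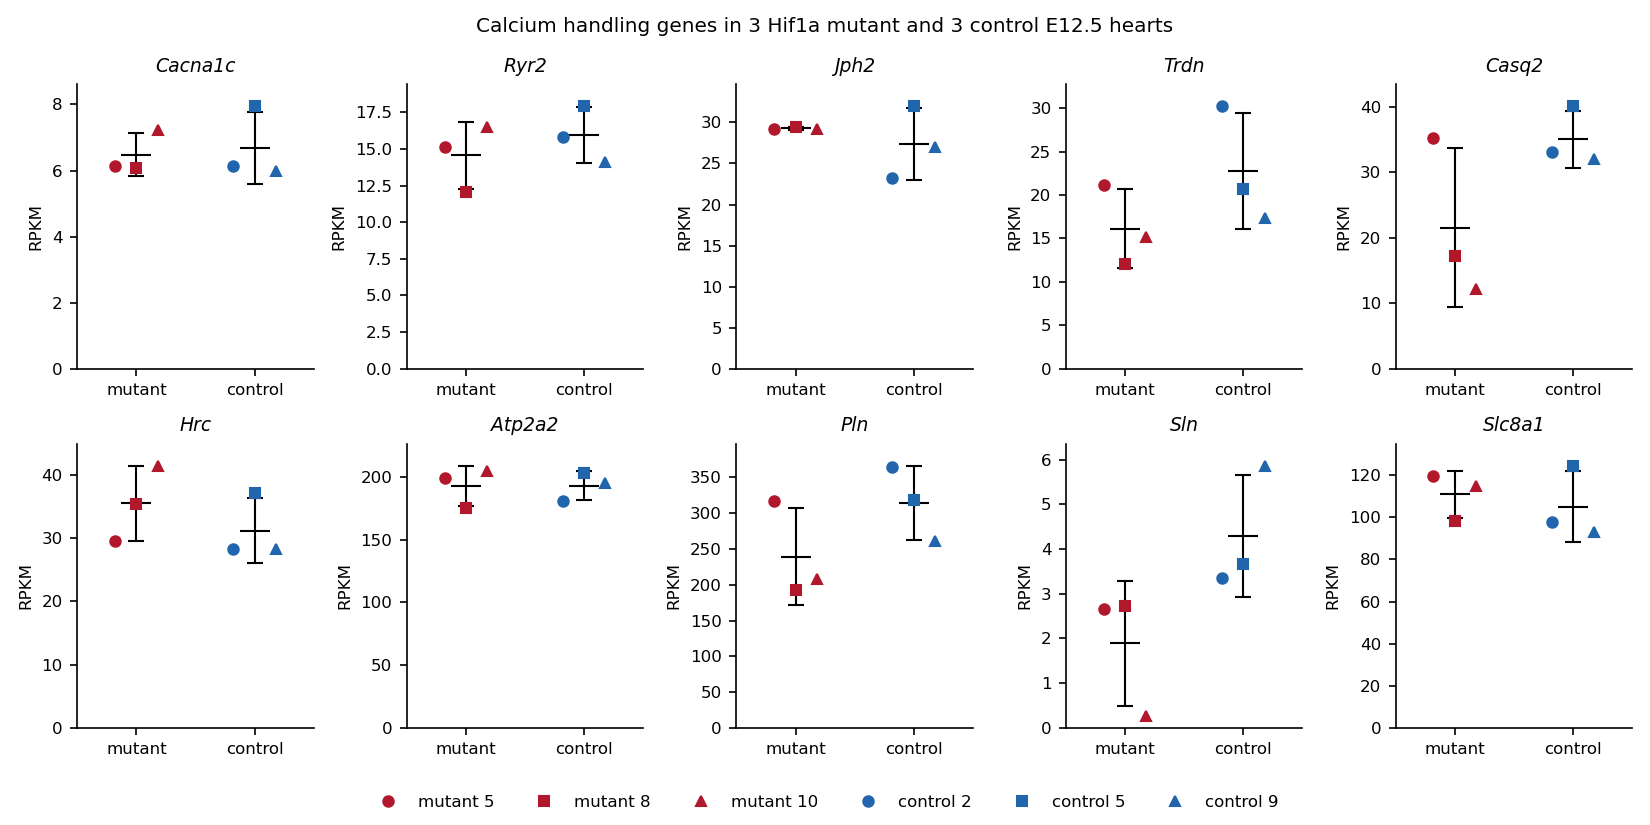
RPKM (vertical axes, from 0) of the 10 calcium handling genes in mutant hearts (red) and control hearts (blue). Each point is a heart, the black bar is the mean and the whiskers are the SD of 3 hearts. Casq2, Pln and Trdn are low in mutants 8 and 10 while mutant 5 lies among the controls, and Sln is at 0.269 RPKM in mutant 10.

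A few facts of the hearts bear on these values. Low values in genes of 1 exon put the shallowest library, mutant 8, at 101850000 reads and the deepest, mutant 10, at 158550000. Hif1a measured 69.5 ± 12.6 RPKM in mutant and 51.3 ± 8.54 RPKM in control hearts (SD, n = 3 each; limma adjusted p = 0.36), over exons that need not be those the floxed and null alleles lack, so the deletion is not checked by it. The 10 cardiomyocyte markers summed to between 10815 and 12364 RPKM in mutant and between 10068 and 11539 RPKM in control hearts. None passed the threshold and 7 were positive, among them the cardiac actin Actc1, which was higher in every mutant heart than in every control heart (log2 change 0.27, limma adjusted p = 0.43). The summed RPKM of 28 copies of 5S ribosomal RNA was 31.3, 192 and 116 in mutants 5, 8 and 10, against 10.7, 31.2 and 71.9 in controls 2, 5 and 9. This order of the hearts was also their order along the first principal component of all tested genes, which held 45.3% of the variance.

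Cacna1c encodes the pore-forming subunit of the L-type channel (ENSMUSG00000051331, mm10 chromosome 6, 118587240 to 119196418, minus strand). It measured 6.14, 6.07 and 7.23 RPKM in mutants 5, 8 and 10, against 6.14, 7.94 and 5.98 RPKM in controls 2, 5 and 9. The ranges overlapped and the log2 change on log2(RPKM + 1) was -0.03 (95% interval -0.31 to 0.25, limma adjusted p = 0.94). Ryr2, the release channel of the heart (ENSMUSG00000021313, chromosome 13, 11553102 to 12106945, minus strand), measured 15.1, 12.1 and 16.5 RPKM in mutant hearts, against 15.8, 17.9 and 14.1 RPKM in control hearts. Only mutant 8 lay below the control range, and the log2 change was -0.13 (95% interval -0.43 to 0.17, limma adjusted p = 0.76). The ratio of Cacna1c to Ryr2 RPKM was 0.406, 0.504 and 0.438 in mutants 5, 8 and 10 and 0.389, 0.444 and 0.423 in controls 2, 5 and 9. These ratios overlapped (exact two-sided permutation p = 0.5).

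Junctophilin 2, encoded by Jph2, bridges the cell membrane and the reticulum (ENSMUSG00000017817, chromosome 2, 163336242 to 163397993, minus strand). It had 29.2, 29.4 and 29.2 RPKM in mutants 5, 8 and 10, against 23.2, 32.0 and 27.0 RPKM in controls 2, 5 and 9. All mutant values lay within the control range (log2 change 0.10, 95% interval -0.16 to 0.37, limma adjusted p = 0.77). Triadin, encoded by Trdn, links calsequestrin to the ryanodine receptor (ENSMUSG00000019787, chromosome 10, 33080554 to 33476709, plus strand). Trdn had 21.1, 12.1 and 15.2 RPKM in mutants 5, 8 and 10, against 30.2, 20.7 and 17.3 RPKM in controls 2, 5 and 9. Mutants 8 and 10 lay below every control and mutant 5 inside the control range, with a log2 change of -0.47 (95% interval -0.98 to 0.05, limma adjusted p = 0.49). Relative to Ryr2, Trdn stood at 1.40, 1.00 and 0.921 in mutant hearts and at 1.91, 1.15 and 1.22 in control hearts (exact permutation p = 0.3).

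Casq2 encodes cardiac calsequestrin, the main calcium-binding protein inside the store (ENSMUSG00000027861, chromosome 3, 102086415 to 102146514, plus strand). It measured 35.3, 17.2 and 12.2 RPKM in mutants 5, 8 and 10, against 33.1, 40.1 and 32.0 RPKM in controls 2, 5 and 9. The controls lay close together, mutant 5 lay among them, and mutants 8 and 10 were far below. The mutant mean was 21.6 ± 12.1 RPKM and the control mean 35.1 ± 4.39 RPKM (SD, n = 3 each), with a log2 change of -0.80 ± 0.31 SE (limma adjusted p = 0.37). Without mutant 5 the log2 change was -1.21 and the limma adjusted p 0.011, the single setting of 15 in which Casq2 passed, and without mutant 10 it was -0.48 (adjusted p = 0.69). The SD on the log2 scale was 0.75 among mutant and 0.17 among control hearts, and counting error from the implied reads was at most 0.020. Relative to Ryr2, Casq2 stood at 2.33, 1.43 and 0.737 in mutant hearts and at 2.10, 2.24 and 2.26 in control hearts (exact permutation p = 0.4).

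The histidine-rich calcium-binding protein, encoded by Hrc, also lies inside the store (ENSMUSG00000038239, chromosome 7, 45335290 to 45338974, plus strand). Hrc had 29.6, 35.4 and 41.4 RPKM in mutants 5, 8 and 10, against 28.3, 37.0 and 28.2 RPKM in controls 2, 5 and 9. Mutant 10, the lowest heart for Casq2, was the highest for Hrc, and the genotypes overlapped (log2 change 0.18, 95% interval -0.15 to 0.51, limma adjusted p = 0.69).

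Atp2a2 encodes the pump SERCA2 (ENSMUSG00000029467, chromosome 5, 122453513 to 122502225, minus strand). Its level was 199, 175 and 205 RPKM in mutants 5, 8 and 10, against 180.4, 203 and 195 RPKM in controls 2, 5 and 9. The means were 193 ± 16.0 and 193 ± 11.6 RPKM (SD, n = 3 each), and the log2 change of -0.002 had the narrowest 95% interval of the 10 members, -0.23 to 0.22 (limma adjusted p = 0.99). The sign of so small a change turned under 5 of 15 alternative settings, median centring among them.

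Phospholamban, encoded by Pln, inhibits SERCA2 until it is phosphorylated (ENSMUSG00000038583, chromosome 10, 53337667 to 53345987, plus strand). Pln had 317, 193 and 208 RPKM in mutants 5, 8 and 10, against 364, 319 and 261 RPKM in controls 2, 5 and 9. As for Trdn and Casq2, mutants 8 and 10 lay below every control and mutant 5 within the control range (log2 change -0.42 ± 0.19 SE, 95% interval -0.86 to 0.02, limma adjusted p = 0.47). In its exons 1644 of 2759 bases are shared with the non-coding gene Gm47644 and 141 with Cep85l, both on the opposite strand, and whether reads were counted by strand is not known here. The ratio of Pln to Atp2a2 was 1.59, 1.10 and 1.01 in mutants 5, 8 and 10 and 2.02, 1.57 and 1.34 in controls 2, 5 and 9. The ratios overlapped, with a difference of -0.42 on the log2 scale (exact permutation p = 0.3).

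Sarcolipin, encoded by Sln, is a short inhibitor of the same pump that in the mouse heart is known as an atrial transcript (ENSMUSG00000042045, chromosome 9, 53850164 to 53854560, plus strand). It was the least abundant member, with 2.66, 2.73 and 0.269 RPKM in mutants 5, 8 and 10, against 3.35, 3.68 and 5.87 RPKM in controls 2, 5 and 9. Every mutant heart lay below every control heart, and mutant 10 stood far below all others. The implied reads in Sln were about 498, 366 and 56 in the mutant hearts and 582, 672 and 958 in the control hearts, so counting error (at most 0.055 on the log2 scale) was small beside the SD of 0.68 within genotypes. The means were 1.89 ± 1.40 RPKM in mutant and 4.30 ± 1.37 RPKM in control hearts (SD, n = 3 each), and the log2 change on log2(RPKM + 1) was -1.00 ± 0.38 SE (limma adjusted p = 0.37). It was -0.49 without mutant 10 and, because the gene is low, between -1.58 with a pseudocount of 0.1 and -0.44 with a pseudocount of 5, and Sln passed in none of the 14 settings that tested it. Relative to Atp2a2, Sln stood at 0.0134, 0.0156 and 0.00131 in mutant hearts and at 0.0185, 0.0181 and 0.0301 in control hearts. These ratios did not overlap, and their exact permutation p of 0.1 is the smallest that 3 hearts against 3 allow.

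The 10 atrial markers were split, with 5 positive and 5 negative (median log2 change 0.02). The atrial light chain Myl7 had 1843, 2074 and 2282 RPKM in mutants 5, 8 and 10, against 1401, 1440.0 and 1810.4 RPKM in controls 2, 5 and 9 (log2 change 0.42, limma adjusted p = 0.27). Myl4, another atrial light chain, had 1045, 1233 and 1172 RPKM in mutant and 980, 902 and 971 RPKM in control hearts (limma adjusted p = 0.36). Cav1, Nr2f1 and Nr2f2 were instead lower in every mutant heart than in every control heart, though Nr2f1 was low in all hearts (0.755 to 1.83 RPKM). Mutant 10 was the lowest of the 6 hearts for Cav1, Nr2f1 and Stard10, as for Sln, but the highest for Myl7 and Nppa (2282 and 1860 RPKM). Cav1, which encodes a caveolin, had 16.1, 9.52 and 7.46 RPKM in mutants 5, 8 and 10, against 21.1, 18.2 and 18.7 RPKM in controls 2, 5 and 9 (log2 change -0.82, limma adjusted p = 0.19). Only the natriuretic peptide gene Nppa passed the threshold, as higher. The summed RPKM of the list, made up mostly of Myl7, Nppa and Myl4, ranged from 4564 to 5381 in mutant and from 3439 to 3951 in control hearts. The 8 ventricular markers summed to between 7382 and 8347 RPKM in mutant and between 7886 and 8697 RPKM in control hearts, with none past the threshold. Whole hearts do not show in which cells these markers were expressed at E12.5, so the sums are not measures of chamber make-up. The part of chamber make-up in the values of Sln was not tested.

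Slc8a1 encodes the sodium-calcium exchanger (ENSMUSG00000054640, chromosome 17, 81373105 to 81738377, minus strand). It measured 119, 98.2 and 115 RPKM in mutants 5, 8 and 10, against 97.7, 125 and 93.0 RPKM in controls 2, 5 and 9. All mutant values lay within the control range (log2 change 0.08, 95% interval -0.21 to 0.38, limma adjusted p = 0.83). The ratio of the exchanger to the pump was 0.601, 0.562 and 0.561 in mutant and 0.542, 0.613 and 0.477 in control hearts (exact permutation p = 0.5). Of 7 such ratios between members, none had a Benjamini-Hochberg adjusted p below 0.5.

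**Figure D2:**
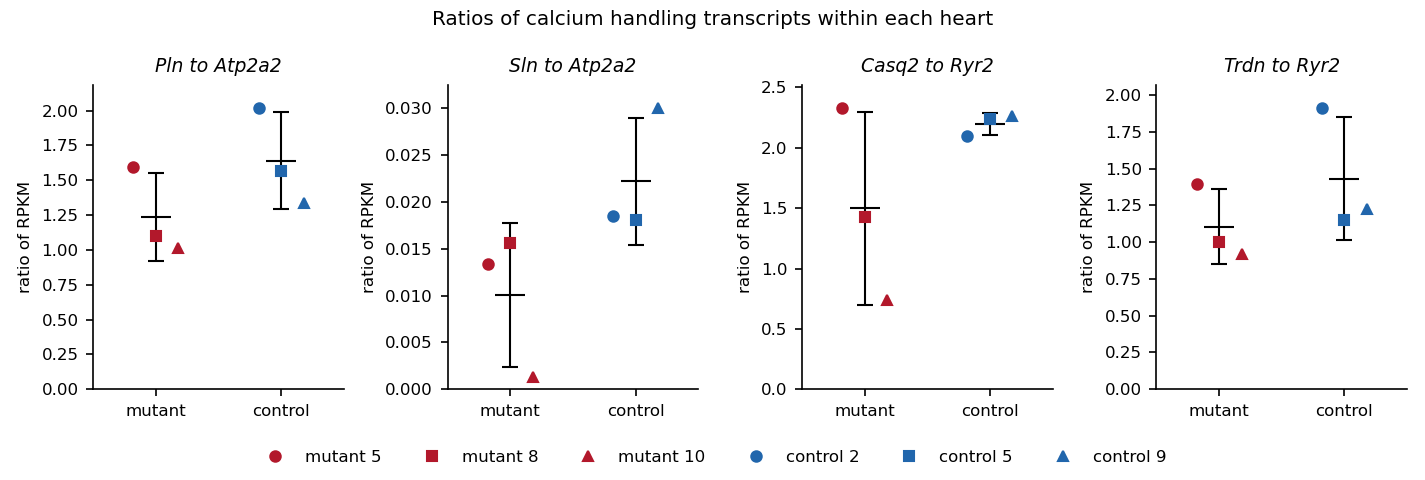
Ratios of RPKM within each heart (vertical axes, from 0), for pump inhibitors over the pump and for store and anchor proteins over the release channel, in mutant hearts (red) and control hearts (blue). Each point is a heart, with the mean and SD of 3 hearts in black. The Casq2 to Ryr2 ratio lies between 2.10 and 2.26 in the controls and spreads between 0.737 and 2.33 in the mutants.

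By level the members kept nearly the same order in both genotypes. In mutant hearts Pln (239 RPKM on average), Atp2a2 and Slc8a1 (111 RPKM) led, followed by Hrc, Jph2, Casq2 (21.6 RPKM), Trdn, Ryr2, Cacna1c and Sln. In control hearts Pln (315 RPKM), Atp2a2 and Slc8a1 (105 RPKM) led, followed by Casq2 (35.1 RPKM), Hrc, Jph2, Trdn, Ryr2, Cacna1c and Sln. Casq2 held place 6 in mutant and place 4 in control hearts, and the other members followed each other in the same order. Neighbours from Jph2 down to Ryr2 overlapped in range in mutant hearts, as did those from Casq2 down to Ryr2 in control hearts. Within each of the 6 hearts Pln lay above Atp2a2, and the ranges of both genes over hearts overlapped in mutant but not in control hearts.

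The levels of Pln and Trdn also moved with the 5S ribosomal RNA sum of the hearts. In rising order of that sum (control 2, control 5, mutant 5, control 9, mutant 10, mutant 8), Pln was lower at each step, with 193 RPKM in mutant 8 at the end and 364 RPKM in control 2 at the start, a pattern held by 169 of 13080 tested genes (1.29%). Trdn departed from it in 1 of 15 pairs of hearts and Casq2 in 3. The share of all genes at such counts was not computed, so these counts do not set Trdn or Casq2 apart from other genes. Controls held ranks 1, 2 and 4 in that order and mutants ranks 3, 5 and 6. A gene lower in every mutant heart is therefore in falling order in most pairs of a mutant and a control heart. Mutant 5 and control 5 had nearly the same sum (31.3 and 31.2 RPKM) and also nearly the same Pln (317 and 319 RPKM) and Trdn (21.1 and 20.7 RPKM). The same pair had 35.3 and 40.1 RPKM of Casq2. It differed widely in Srl (42.8 and 81.9 RPKM) and Casq1 (27.5 and 60.5 RPKM), which are described below. The part of this order of hearts in the lower values of Pln, Trdn and Casq2 was not tested.

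**Figure D3:**
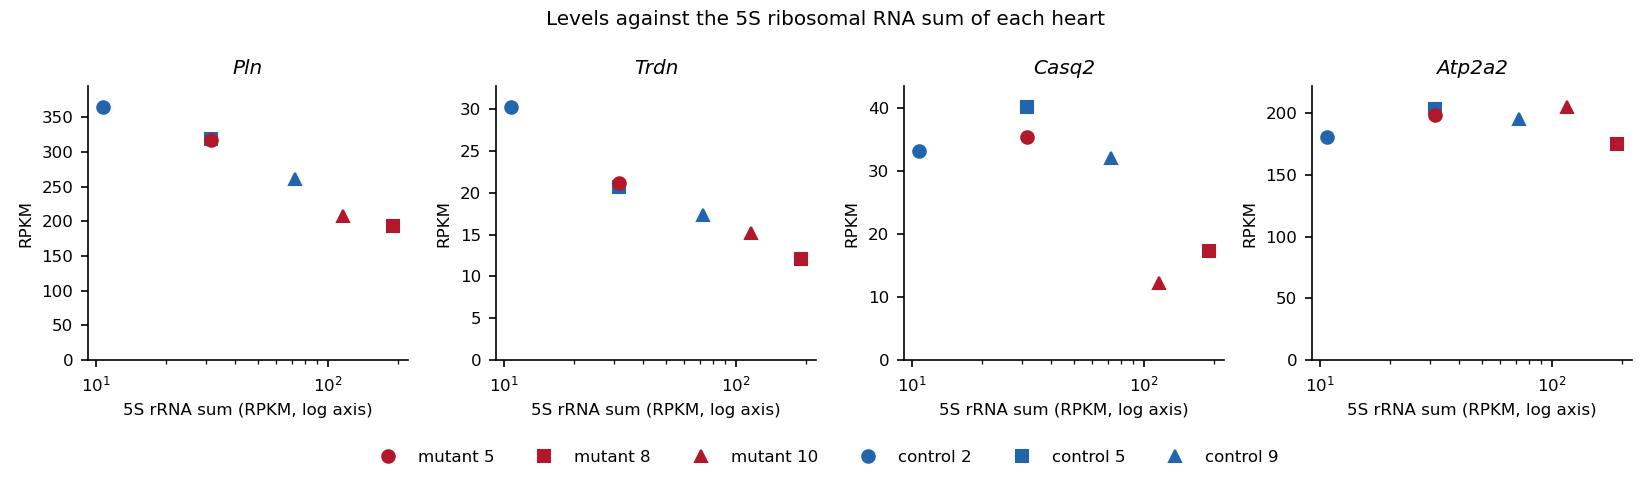
RPKM of Pln, Trdn, Casq2 and Atp2a2 (vertical axes, from 0) against the summed RPKM of 28 copies of 5S ribosomal RNA (horizontal log axis), with mutant hearts in red and control hearts in blue. Each point is a heart. Pln and Trdn decline along the axis in both genotypes, Casq2 is low in mutants 8 and 10, and Atp2a2 stays between 175 and 205 RPKM.

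Because mutants 8 and 10 had low Casq2 and Pln, the 250 bases before the RefSeq start of these genes (GRCm38.p6, plus strand) are shown, as chr3:102086165-102086414 and chr10:53337436-53337685. Capitals mark ACGTG, a form of the core of the sequence that HIF1 binds, searched on both strands (reverse complement CACGT). The other form, GCGTG, was not counted or marked, so the counts below cover ACGTG alone and do not show that a stretch lacks the core.
Casq2: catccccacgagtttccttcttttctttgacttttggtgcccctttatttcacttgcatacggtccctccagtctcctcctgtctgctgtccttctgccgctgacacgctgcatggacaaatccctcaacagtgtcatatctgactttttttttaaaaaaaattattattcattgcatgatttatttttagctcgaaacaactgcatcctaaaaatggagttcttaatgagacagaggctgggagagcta
Pln: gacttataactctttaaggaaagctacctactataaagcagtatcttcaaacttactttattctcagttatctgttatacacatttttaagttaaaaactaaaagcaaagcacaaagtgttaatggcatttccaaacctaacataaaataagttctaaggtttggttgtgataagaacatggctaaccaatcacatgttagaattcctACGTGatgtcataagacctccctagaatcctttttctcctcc
The Casq2 stretch held no ACGTG but does hold, unmarked, CACGC, the reverse complement of GCGTG. The Pln stretch held 1 ACGTG, with its first base at position -42 from the start. Both printed stretches thus hold a form of the core. The RefSeq promoter table held 10 starts for 7 members (Casq2, Pln, Ryr2, Hrc, Slc8a1, Jph2 and Cacna1c), and none for Atp2a2, Trdn and Sln. Of those 10 stretches 4 held ACGTG, 1 each for Pln, Ryr2, Hrc and Cacna1c. Of all 32851 RefSeq starts, 16.6% held ACGTG. A match is a run of letters, not a measured binding site.

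Further genes were taken from 8 lists (channel subunits, release channels and partners, junction and transverse tubule, reticulum uptake and storage, membrane extrusion, store-operated entry, mitochondrial uptake, and kinases, phosphatases and adrenergic control). The channel list also held the GTPases Rrad and Gem, which are not subunits, and the junction list held Junb, a transcription factor. Of the 113 symbols on these lists 96 had a row and 86 rows were tested. None passed the threshold in limma in either direction, and 10 did at an unadjusted p under 0.05, with 3 higher and 7 lower. That is 11.6% of them, beside 11.2% of all tested genes. Values did not overlap in 12 as lower (14%, beside 9.43% of tested genes) and in 3 as higher (3.49%, beside 7.6%).

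Sarcalumenin, encoded by Srl, is a calcium-binding glycoprotein inside the reticulum (ENSMUSG00000022519, chromosome 16, 4480216 to 4541816, minus strand), and it had the smallest p of these 86. It measured 42.8, 35.6 and 38.4 RPKM in mutants 5, 8 and 10, against 56.9, 81.9 and 62.6 RPKM in controls 2, 5 and 9. The mutant hearts were close together and all below the controls, with means of 38.9 ± 3.64 RPKM in mutant and 67.2 ± 13.1 RPKM in control hearts (SD, n = 3 each). The log2 change was -0.76 ± 0.14 SE, and its limma adjusted p of 0.0504 lay just above the threshold. Srl was negative in all 15 alternative settings and passed in 5 of them (adjusted p 0.027 to 0.22).

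Casq1 encodes the calsequestrin best known from skeletal muscle (ENSMUSG00000007122, chromosome 1, 172209894 to 172219868, minus strand). It had 27.5, 38.1 and 40.3 RPKM in mutants 5, 8 and 10, against 46.3, 60.5 and 59.0 RPKM in controls 2, 5 and 9. Here mutant 5 was the lowest heart, whereas for Casq2 it lay among the controls (Casq1 log2 change -0.64 ± 0.16 SE, limma adjusted p = 0.15). In mean RPKM Casq1 stood above Casq2 in both genotypes, at 35.3 and 21.6 in mutant and at 55.3 and 35.1 in control hearts. Asph, whose locus encodes aspartate beta-hydroxylase and also the triadin partner junctin, had 7.94, 6.00 and 7.04 RPKM in mutant and 8.82, 10.0 and 8.57 RPKM in control hearts (log2 change -0.35, limma adjusted p = 0.30). The value covers the locus and not junctin alone.

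Along the rising 5S order Srl was in falling order in 12 of 15 pairs of hearts, as many as Casq2, and Casq1 in 10. How many of all tested genes reach such counts was not computed. Being lower in every mutant heart already puts Srl and Casq1 in falling order in most pairs of a mutant and a control heart. Tnni2 and Ckm, of the skeletal muscle markers, had no overlap between genotypes. Tnni2 had 15.0, 19.4 and 20.2 RPKM in mutant and 43.0, 34.2 and 34.4 RPKM in control hearts (limma adjusted p = 0.012), and Ckm 29.9, 24.3 and 20.7 RPKM in mutant and 36.8, 46.5 and 36.7 RPKM in control hearts (limma adjusted p = 0.11). Of 10 listed skeletal muscle markers 5 had a row and were tested, while Myod1, Myog, Myf5, Pax7 and Myh3 had none. Those 5 summed to between 149 and 271 RPKM in mutant and between 195 and 233 RPKM in control hearts. Tnni2 was lower past the threshold and none was higher. The other markers, Acta1, Tnnt3 and Mylpf, overlapped between genotypes and had positive log2 changes of 0.14, 0.15 and 0.36 (limma adjusted p between 0.55 and 0.89). Their part in the values of Casq1 and Srl was not tested.

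**Figure D4:**
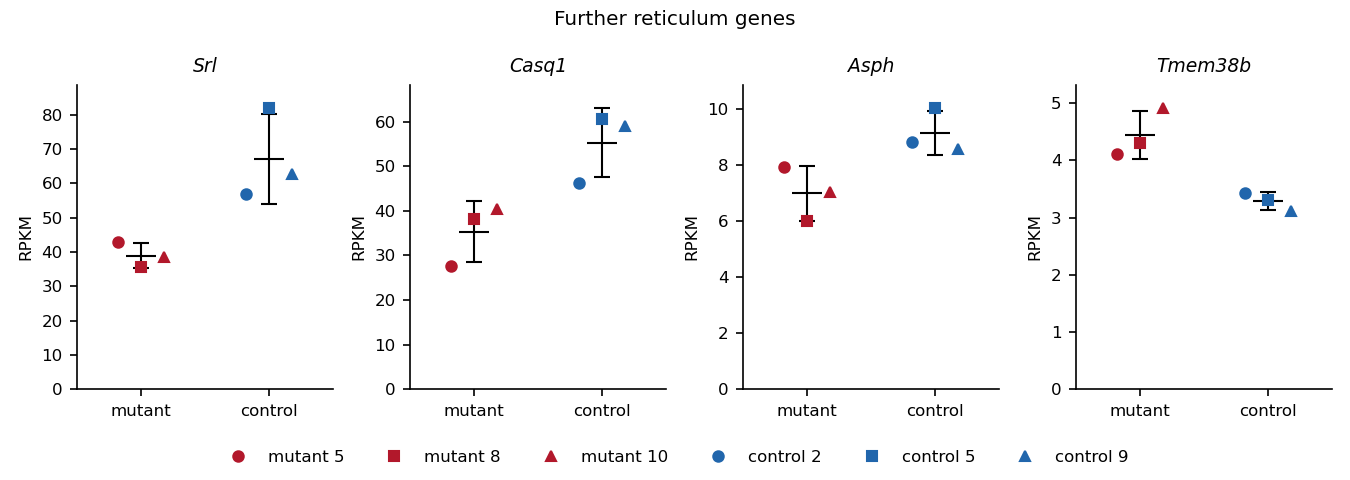
RPKM (vertical axes, from 0) of 4 further reticulum genes in mutant hearts (red) and control hearts (blue). Each point is a heart, with the mean and SD of 3 hearts in black. Srl, Casq1 and Asph are lower and Tmem38b is higher in every mutant heart than in every control heart.

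Among release channel partners, Tmem38b, a potassium channel of the reticulum membrane, had 4.11, 4.31 and 4.92 RPKM in mutants 5, 8 and 10, against 3.43, 3.31 and 3.11 RPKM in controls 2, 5 and 9. Its values did not overlap (log2 change 0.34, limma adjusted p = 0.22). Fkbp1b, which binds and steadies Ryr2, had 2.71, 1.72 and 1.64 RPKM in mutant and 3.40, 3.00 and 2.46 RPKM in control hearts, and it overlapped through mutant 5 (log2 change -0.40, limma adjusted p = 0.38). Of 13 tested genes in that list none passed, and the median log2 change was -0.06.

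In the channel list, Rrad, a small GTPase that restrains the L-type channel, had 92.0, 95.9 and 88.5 RPKM in mutants 5, 8 and 10, against 69.9, 79.0 and 74.7 RPKM in controls 2, 5 and 9. The genotypes did not overlap (log2 change 0.30, limma adjusted p = 0.24). The channel subunit Cacnb2, which carries Cacna1c to the membrane, had 4.66, 4.38 and 4.81 RPKM in mutant and 5.02, 5.56 and 5.83 RPKM in control hearts (log2 change -0.20, limma adjusted p = 0.47). The related pore subunit Cacna1d measured 1.10 and 1.47 RPKM on average in mutant and control hearts (limma adjusted p = 0.51). None of the 11 tested channel genes passed.

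In the junction list, Bin1, which shapes transverse tubules, had 3.80, 4.71 and 4.12 RPKM in mutant and 5.07, 5.05 and 5.58 RPKM in control hearts, with no overlap (log2 change -0.26, limma adjusted p = 0.38). Cav3, the muscle caveolin, averaged 25.8 RPKM in mutant and 30.2 RPKM in control hearts (limma adjusted p = 0.53). Of the uptake genes, Atp2a1, the pump of fast skeletal muscle, averaged 7.16 ± 2.35 RPKM in mutant and 5.40 ± 2.25 RPKM in control hearts (SD, n = 3 each; limma adjusted p = 0.66), far below Atp2a2. The luminal protein Calu averaged 157 RPKM in mutant and 173 RPKM in control hearts (limma adjusted p = 0.69). For extrusion, the calcium pump Atp2b4 averaged 5.65 and 6.84 RPKM, the exchanger Slc24a3 0.804 and 1.15 RPKM and the sodium pump subunit Atp1b1 129 and 111 RPKM in mutant and control hearts, with limma adjusted p between 0.37 and 0.50.

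**Figure D5:**
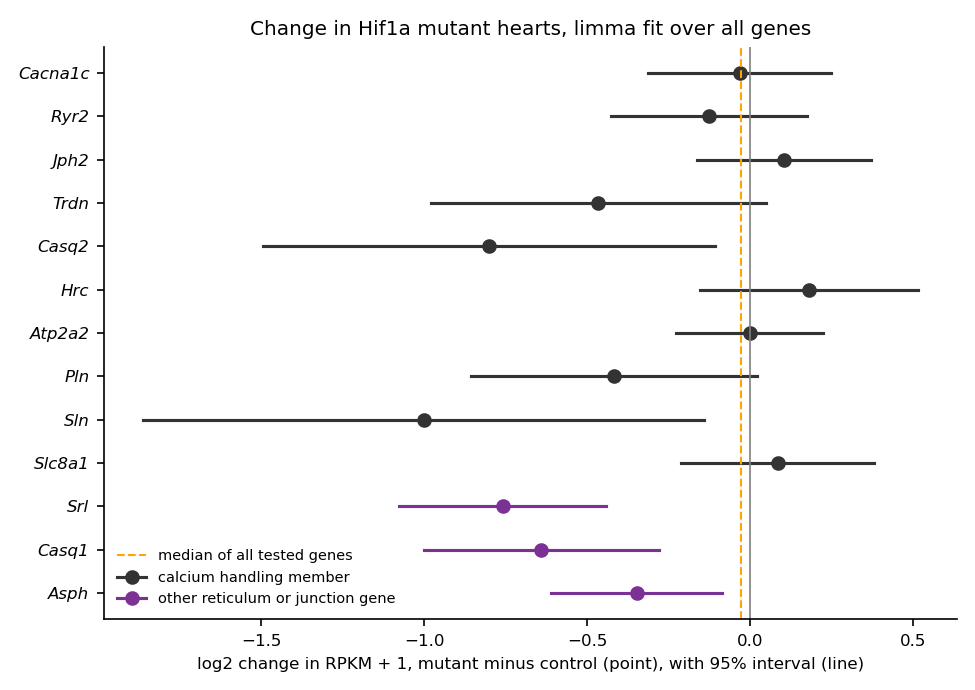
Log2 change on log2(RPKM + 1), mutant minus control, with its 95% interval from limma (horizontal axis), for the 10 calcium handling genes (black) and for Srl, Casq1 and Asph (purple). The dashed line is the median of all tested genes. Atp2a2 has the narrowest interval of the 10 members and Sln the widest.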

How the data were processed

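Total RNA from 6 E12.5 mouse hearts was extracted with TRIzol and made into Illumina libraries, per the labels' protocols. The submitters' processing notes name Trim Galore, TopHat2 and mm10. The counting tool, its annotation and its strand setting are not given in the sources used. The authors deposited a table of RPKM on a linear scale, 1 column per heart, whose unit was read from its values.

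Gene positions come from GENCODE M21 (mm10). Depth was estimated from genes of 1 exon, whose values times exon length fell within 0.1 of whole multiples of a step for 91.9% to 98.1% of values under 20 reads, and reads per member assume that all listed exons were counted. Such errors cover counting only.

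limma 3.58.1 (R 4.3.3) with a mean-variance trend was fitted on log2(RPKM + 1) to 13080 genes reaching 1 RPKM in 3 or more libraries, all 6 hearts, no covariates, two-sided, with Benjamini-Hochberg adjustment over all of them. The fit was also run on simulated data in which genes were drawn independently and spreads were shuffled among genes. That setting differs from these hearts, so the run does not check the fit for them. Ratios were compared with exact permutation tests. All members are named, with, for each of 8 further lists, genes past the threshold and the 3 smallest p; 1 gene under this rule is not reported here. The members and lists were chosen with earlier results of these data known. Alternatives were scaling (median centring, total without haemoglobin genes), the filter on low values, the variance model, the pseudocount and leaving out each heart. Python 3.11.15 and matplotlib 3.10.9 were used.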

Additional observations from a re-analysis of the deposited data

How the results depend on the processing

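No paired analysis was possible because the genotypes share only the sample number 5. No member passed the limma threshold in any setting except Casq2 without mutant 5 (adjusted p = 0.011), so the count of members past it was 0 to 1 when a heart was left out. The count over all genes, 107, was 40 to 198 with a heart left out (198 without mutant 5, 40 without mutant 10, 52, 43 and 67 without controls 2, 5 and 9) and 53 among the 4 hearts that express chromosome Y genes (mutants 5 and 10, controls 2 and 5), a setting chosen after seeing the data. The cause was not tested. Changes near 0 turned sign. Atp2a2 was 0.033 after median centring, 0.076 in those 4 hearts and -0.049 to 0.067 with a heart left out. Cacna1c was 0.0017 after median centring and -0.10 to 0.080 with a heart left out, and Jph2 was -0.0057 to 0.22. The log2 difference of the Slc8a1 to Atp2a2 ratio was -0.0043 to 0.18 with a heart left out. Median log2 changes of the members lay between -0.16 (without mutant 10) and 0.0004 (without mutant 8). Over members, 139 values kept their direction and their side of the threshold, 9 turned and 1 gained a call. Over the other named genes 357 kept both and 5, all of Srl, gained a call. For each of the 10 members the SD within genotypes, pooled over both, was larger than its counting error from the implied reads. Among mutant hearts alone Jph2 varied less (SD 0.0069, counting error up to 0.012). Spread between hearts and spread from library preparation are not separated.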

Other observations

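Genes of mitochondrial calcium uptake and of store-operated entry showed small differences. Mcu, the pore of the mitochondrial calcium uniporter, had 4.01, 3.82 and 3.96 RPKM in mutants 5, 8 and 10, against 4.47, 4.92 and 4.73 RPKM in controls 2, 5 and 9. Its genotypes did not overlap (log2 change -0.21, limma adjusted p = 0.43). Smdt1, which encodes a small subunit of the same uniporter, had 127, 155 and 138 RPKM in mutant and 107, 115 and 128 RPKM in control hearts (log2 change 0.26, limma adjusted p = 0.42). None of the 9 tested genes of mitochondrial uptake passed.

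The store sensors Stim1 and Stim2 each lay lower in every mutant heart than in every control heart. Stim1 averaged 2.12 RPKM in mutant and 2.39 RPKM in control hearts (limma adjusted p = 0.66), and Stim2 averaged 3.24 RPKM in mutant and 3.85 RPKM in control hearts (limma adjusted p = 0.49). The entry channel Orai3 averaged 2.13 and 2.59 RPKM in mutant and control hearts (limma adjusted p = 0.61). Of the 23 tested rows for kinases, phosphatases and adrenergic control none passed. In that list Rcan1, an inhibitor of the phosphatase calcineurin, averaged 33.4 ± 7.40 RPKM in mutant and 26.4 ± 1.59 RPKM in control hearts (SD, n = 3 each; limma adjusted p = 0.47). Ppp1r3a, a muscle targeting subunit of protein phosphatase 1, averaged 1.60 RPKM in mutant and 2.23 RPKM in control hearts (limma adjusted p = 0.49) and, like Pln, was lower at each step of the 5S order. Smdt1 and Ppp1ca, a catalytic subunit of the same phosphatase, were higher at each step, as were 96 of 13080 tested genes (0.734%). Fkbp1b and Cav3 were in falling order in 14 of 15 pairs of hearts, as many as Trdn. The share of all genes at that count was not computed.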
